A study of Mus musculus with 374 samples.

Results

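The Ms4a genes (membrane-spanning 4-domains, subfamily A) encode small proteins that cross the membrane several times and often sit beside signalling receptors. Different blood lineages carry different members. Ms4a1 encodes CD20, a surface protein of B cells that acts in calcium signalling and is the target of therapeutic antibodies. Ms4a2 encodes the beta chain of the high-affinity IgE receptor of mast cells and basophils. Ms4a3 is a gene of granulocyte and monocyte progenitors. Ms4a4b is a T cell gene whose product associates with the costimulatory receptor GITR, and Ms4a4c, Ms4a6b, Ms4a6c and Ms4a6d are close relatives.

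The members described here are these 8 genes, chosen by their symbols from the 19829 mouse gene rows of the count table. Single cells were sorted into the wells of 1 plate from 1 female C57BL/6 mouse aged 10 to 13 weeks, untreated as far as the labels say, and sequenced by CEL-seq2, which counts unique molecular identifiers (UMIs, 1 per captured transcript) near the 3′ end of transcripts. The bone marrow gave 44 B lymphocytes (B220+, low forward scatter), 96 granulocytes (Mac1+ Gr1+), 96 erythroblasts (Ter119+ CD44+, mid or high forward scatter) and 95 progenitor/stem cells (lineage-negative, Kit+ Sca1+). The thymus gave 43 T lymphocytes (CD3+, low forward scatter). Each population is therefore 1 sample of 1 animal, with no replicate and no test, and the 95% intervals below cover counting error only.

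The UMI sums on mouse genes were lowest in the B lymphocytes, at 135808, and highest at 834812 in the progenitor/stem cells, and the median per well in these was 3028.5 and 7959. Of the lists of defining markers, all 7 B lymphocyte genes, 9 T lymphocyte genes, 8 granulocyte genes, 7 erythroblast genes and 6 progenitor/stem cell genes had their highest level in the population they name. The 374 wells carried 374 distinct barcodes. In 7 of the 374 wells the profile correlated best with another population.

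The granulocyte wells were not alike, and several members differed between them. On a list of monocyte genes (Csf1r, Ccr2, F13a1, Ly86, Klf4, Fcgr1 and Ctss), 83 of the 96 wells held 0 to 3 UMIs and 13 wells held 11 to 94, with no well between. This division was drawn after its values had been seen. The 13 wells held 590 of the 624 UMIs on the list and 22.8% of all granulocyte UMIs. Their Gr1 fluorescence was 736 to 3007 (median 1170), against a median of 20943 in the other 83 wells, of which 5 were also at or below 3007. Genes of the granulocyte list (Camp, Lcn2, Ltf, Mmp8, Ngp, Retnlg, S100a8 and S100a9) took a median of 0.244% of their UMIs, against 17.8% in the other wells. The exception among the 13 was the deepest granulocyte well, with 22425 UMIs and 7.30% on that list. Of the other 83 wells, 1 had 8 UMIs in all and 1, at a Gr1 of 1152, had 69. Both are too shallow to be placed by the monocyte list.

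In GENCODE M21 (GRCm38) the 8 members lie within 391 kb of chromosome 19 (11249675 to 11640851), inside a cluster of 19 Ms4a genes that spans 679 kb. Along the chromosome the order is Ms4a1 (chr19:11249675-11266241, reverse strand, ENSMUSG00000024673), Ms4a4c (chr19:11404770-11427246, forward, ENSMUSG00000024675), Ms4a4b (chr19:11443553-11467055, forward, ENSMUSG00000056290), Ms4a6c (chr19:11469366-11482192, forward, ENSMUSG00000079419) and Ms4a6b (chr19:11516512-11531256, forward, ENSMUSG00000024677). Ms4a6d (chr19:11586604-11604849, ENSMUSG00000024679), Ms4a2 (chr19:11615523-11623719, ENSMUSG00000024680) and Ms4a3 (chr19:11629496-11640851, ENSMUSG00000024681) follow, all on the reverse strand. The 4 forward-strand members are direct neighbours. Of these, Ms4a4b and Ms4a6b were highest in the T lymphocytes and Ms4a4c and Ms4a6c in the granulocytes. Without the 13 granulocyte wells with monocyte genes, Ms4a4c and Ms4a6c were no longer highest in the granulocytes. Ms4a1, Ms4a4c, Ms4a6c and Ms4a6b each overlap another annotated gene (4930526L06Rik, Gm5692, BE692007 and Gm19261), and the use of strand in the counting is not given in the sources used here, so reads of overlapping genes could not be told apart. Close copies could also share reads: in the last 500 bases of their transcripts, 10.4% of the 50-base words of Ms4a4c also occur in Ms4a4b, and 10.4% of those of Ms4a6c in Ms4a6b. For the other members that share was at most 1.22%.

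The RefSeq promoters of 6 members are shown (GRCm38.p6, 250 bases before to 50 after the start, 5′ to 3′ on the strand of the gene). The reason is that neighbouring copies, Ms4a4b beside Ms4a4c and Ms4a6b beside Ms4a6c, were highest in different populations. This difference rested on the 13 granulocyte wells with monocyte genes. Capitals mark matches, on either strand, to the letters of 7 motifs of blood cell factors. The letters of each motif are given with its matches, and in the Ms4a3 window the PU.1 and C/EBP matches abut.
Ms4a4b: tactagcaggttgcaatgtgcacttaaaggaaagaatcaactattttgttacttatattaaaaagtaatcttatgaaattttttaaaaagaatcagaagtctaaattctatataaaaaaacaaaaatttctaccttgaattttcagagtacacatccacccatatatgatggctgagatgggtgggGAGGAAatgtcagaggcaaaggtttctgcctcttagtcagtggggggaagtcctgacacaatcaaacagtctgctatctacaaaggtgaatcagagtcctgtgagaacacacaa
Ms4a4c: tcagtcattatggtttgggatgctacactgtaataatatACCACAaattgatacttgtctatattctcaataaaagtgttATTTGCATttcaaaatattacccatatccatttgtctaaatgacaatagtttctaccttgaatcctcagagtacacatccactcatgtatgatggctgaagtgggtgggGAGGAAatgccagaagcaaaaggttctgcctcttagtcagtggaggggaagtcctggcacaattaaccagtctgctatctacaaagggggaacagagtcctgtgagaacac
Ms4a6b: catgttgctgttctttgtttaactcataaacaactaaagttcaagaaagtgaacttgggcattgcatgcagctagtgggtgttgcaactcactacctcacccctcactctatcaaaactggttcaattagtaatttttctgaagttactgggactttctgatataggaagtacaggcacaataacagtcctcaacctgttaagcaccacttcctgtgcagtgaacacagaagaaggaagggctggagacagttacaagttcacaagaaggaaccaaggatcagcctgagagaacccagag
Ms4a6c: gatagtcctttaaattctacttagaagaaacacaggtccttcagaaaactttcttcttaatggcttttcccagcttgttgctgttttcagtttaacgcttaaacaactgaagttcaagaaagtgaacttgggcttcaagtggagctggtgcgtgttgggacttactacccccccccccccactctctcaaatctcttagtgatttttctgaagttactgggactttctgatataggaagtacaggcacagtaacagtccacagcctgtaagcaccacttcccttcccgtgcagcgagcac
Ms4a2: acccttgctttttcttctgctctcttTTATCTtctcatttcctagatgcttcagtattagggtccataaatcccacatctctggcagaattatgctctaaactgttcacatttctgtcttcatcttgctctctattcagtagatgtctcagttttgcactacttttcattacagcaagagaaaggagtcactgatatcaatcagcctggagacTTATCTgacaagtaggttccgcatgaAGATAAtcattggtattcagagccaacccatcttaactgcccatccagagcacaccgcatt
Ms4a3: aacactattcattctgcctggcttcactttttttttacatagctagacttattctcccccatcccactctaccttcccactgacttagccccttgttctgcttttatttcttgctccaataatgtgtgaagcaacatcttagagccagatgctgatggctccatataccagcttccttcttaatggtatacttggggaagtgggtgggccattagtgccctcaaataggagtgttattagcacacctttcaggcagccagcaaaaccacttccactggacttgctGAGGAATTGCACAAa
These windows lie at chr19:11443308-11443607 (Ms4a4b), chr19:11407411-11407710 (Ms4a4c), chr19:11518309-11518608 (Ms4a6b) and chr19:11469118-11469417 (Ms4a6c) on the forward strand, and at chr19:11623670-11623969 (Ms4a2) and chr19:11640802-11641101 (Ms4a3) on the reverse strand. The Ms4a4b and Ms4a4c promoters were identical in 73.8% of aligned columns, and both held the PU.1 letters, GAGGAA, at nearly the same place, 64 and 61 bases before the start. The other 14 pairs were at 47.5% to 53.6%, Ms4a6b and Ms4a6c at 52.3%. PU.1 letters occurred in 28.3% of the 32851 RefSeq promoters of this length. Ms4a4c also held the octamer, ATGCAAAT (found in 1.74% of promoters), 170 bases before the start, and the RUNX letters, TGTGGT (16.8% of promoters), 211 bases before it. Ms4a2 held the GATA letters, AGATAA (11.2% of promoters), 3 times, and Ms4a3 held the PU.1 letters and the C/EBP letters, TTGCNNAA (10.8% of promoters). Neither Ms4a6b nor Ms4a6c held any of the 7 motifs. The TCF letters, CTTTGA (16.0% of promoters), and the interferon response motif (3.44%) matched in none of the 6. A match is a description of the letters and not a bound site.

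Of the 8 members, Ms4a1 was highest in the B lymphocytes, Ms4a4b and Ms4a6b in the T lymphocytes, and the other 5 in the granulocytes. None was highest in the erythroblasts or the progenitor/stem cells. Levels are given as UMIs per 1000000 UMIs on mouse genes (CPM) of the population sum. For all 8 members together the T lymphocytes were at 1786 CPM, the B lymphocytes at 552, the granulocytes at 501, the progenitor/stem cells at 146 and the erythroblasts at 16.5. The intervals of the B lymphocytes (434 to 692) and the granulocytes (434 to 575) overlap, and no other neighbours in this order do. At least 1 member was found in 35 of 43 T lymphocytes, 20 of 44 B lymphocytes, 24 of 96 granulocytes, 63 of 95 progenitor/stem cells and 10 of 96 erythroblasts.

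**Figure D1:**
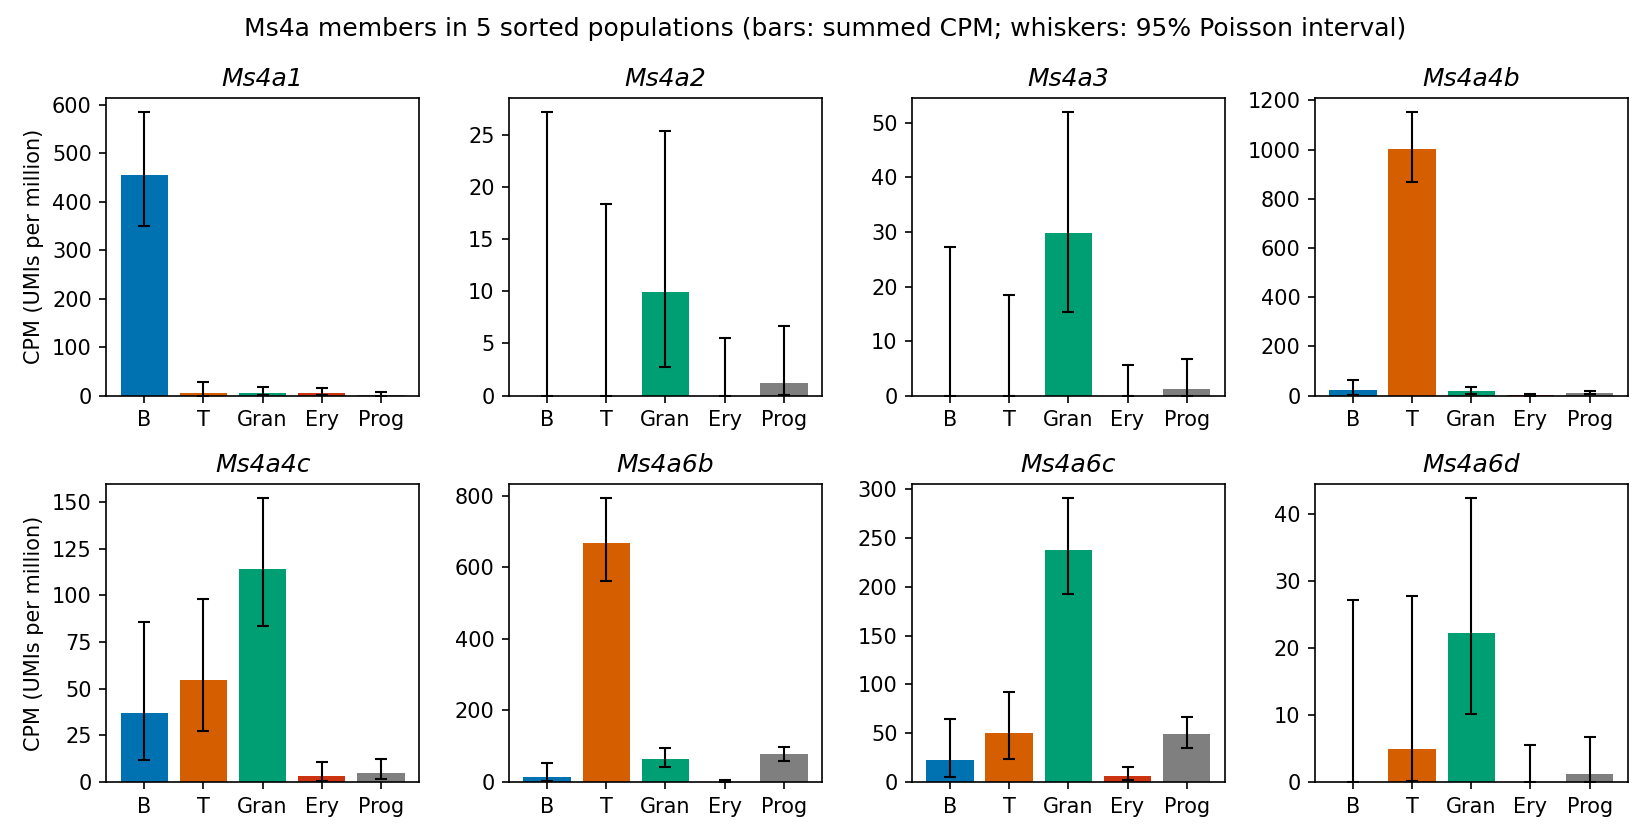
Level of each of the 8 members in the 5 sorted populations (bars, summed CPM; whiskers, 95% Poisson intervals for counting error; each panel has its own axis from 0). Ms4a1 stands out in B lymphocytes (457 CPM), Ms4a4b (1003) and Ms4a6b (669) in T lymphocytes, and Ms4a6c (238) in granulocytes; the bars of Ms4a2, Ms4a3 and Ms4a6d rest on 4, 12 and 9 UMIs.

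For a common yardstick, a gene with at least 20 UMIs in all was counted as past 4-fold when its highest population was at least 4-fold the next, with sums under 3 UMIs raised to 3. This held for 4 of the 5 members with at least 20 UMIs, against 7.11% of the 9512 genes with that many. Ms4a1 was past it in the B lymphocytes (0.841% of genes), Ms4a4b and Ms4a6b in the T lymphocytes (1.03%) and Ms4a6c in the granulocytes (2.13%). The call of Ms4a6c depended on the scaling: with scran size factors, the mean of CPM over wells and ERCC scaling the next population was the progenitor/stem cells, at a log2 ratio of 1.87, 1.64 and 1.32, under 4-fold. It was also lost without the 13 granulocyte wells with monocyte genes. There the T lymphocytes and the progenitor/stem cells were highest, at a log2 ratio of 0.02 (−1.14 to 1.04), and cannot be ordered. No member was among the genes past it in the erythroblasts (2.6%) or the progenitor/stem cells (0.505%). The median log2 ratio of the highest over the next population was 3.12 for these 5 members and 0.44 for all 9512 genes. Ms4a2, Ms4a3 and Ms4a6d had fewer than 20 UMIs and were not counted.

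Ms4a1 lay mostly in the B lymphocytes, which held 62 of its 70 UMIs. The B lymphocytes were at 457 CPM (interval 350 to 585), the erythroblasts at 6.00, the T lymphocytes at 4.99, the granulocytes at 4.96 and the progenitor/stem cells at 1.20. The last 4 rest on 4, 1, 2 and 1 UMIs and cannot be ordered. The log2 ratio of B lymphocytes over erythroblasts was 6.25 (4.82 to 8.17). A UMI of Ms4a1 was found in 17 of 44 B lymphocytes (38.6%) and 4 of 96 erythroblasts (4.17%), at median depths of 3028.5 and 6113.5 UMIs. With every well thinned to 1000 UMIs (shallower wells, 1 in each of these populations, left out) the expected shares were 26.2% and 0.679%, so the B lymphocyte share lay far above that of the erythroblasts. Whether the 4 erythroblast UMIs were carried over or transcribed there cannot be told apart.

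Among the B lymphocytes 27 wells had no Ms4a1 UMI, and 1 well held 21 of the 62, the next highest 7. Wells with B220 above the population median had 42 UMIs and the others 20, a log2 ratio of 0.96 (0.16 to 1.81). Without the highest well these became 21 and 20, a log2 ratio of 0.06 (−0.89 to 1.02). The 15 highest wells by B220 had 19 UMIs and the 15 lowest 7, a log2 ratio of 1.66 (0.35 to 3.16), with the highest well in neither set. The relation to B220 thus depends on where the wells are divided. The genes of late marrow B cells (Cd74, H2-Aa, H2-Ab1, Ighd, Cr2, Fcmr and Fcer2a) followed B220 more plainly, at 485 against 50 UMIs and a log2 ratio of 3.17 (2.75 to 3.62). Those of early marrow B cells, among them the recombinase genes Rag1 and Rag2, had a log2 ratio of −0.41 (−0.72 to −0.10).

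The 17 wells with Ms4a1, 38.6% of the B lymphocytes, held 156 of the 247 UMIs of Cd74 (the invariant chain of MHC class II), 10 of 12 of Cr2 (complement receptor CD21) and 83 of 156 of Cd79a (a signalling chain of the B cell receptor). Of the genes of the early list they held 12 of 89 UMIs of Rag1, 13 of 51 of Il7r and 70 of 201 of Vpreb3 (part of the pre-B cell receptor), the last near the share of the wells. Rag2, Vpreb1, Igll1 and Dntt had 2 to 5 UMIs each in the B lymphocytes, of which 40% to 100% were in these wells. Over the 44 wells, the share of UMIs on Ms4a1 had a Spearman correlation of 0.39 (Pearson 0.21) with the late list and −0.29 (−0.23) with the early list. The wells share 1 library and differ in depth, and in counts this sparse such weak values are a description only. Of the other surface proteins that work beside CD20 at the B cell receptor, Cd79b had 186 UMIs in the B lymphocytes, Cd22 19, Cd81 17 and Cd40 3. Cd81, which many cells carry, had 120 UMIs in the progenitor/stem cells. Cd79a was also the gene whose levels over the 5 populations were most like those of Ms4a1 (cosine 0.99995), followed by Fam129c (0.9999) and Cd74 (0.9999).

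**Figure D2:**
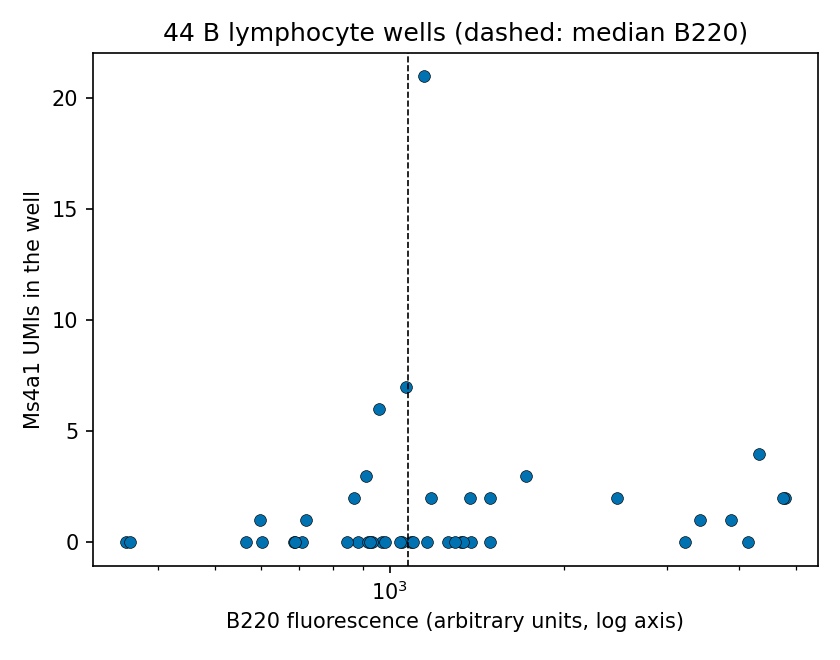
Ms4a1 UMIs in each of the 44 B lymphocyte wells (vertical axis) against B220 fluorescence recorded at the sort (arbitrary units, log axis; dashed line, median). The 27 wells at 0 run from a B220 of 352 to 4145, the 3 wells above that hold 4, 2 and 2 UMIs, and the single well with 21 UMIs lies just above the median.

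Ms4a4b had the highest level of any member, 1003 CPM (869 to 1152) in the T lymphocytes. They held 201 of its 221 UMIs. The B lymphocytes were at 22.1 CPM (4.56 to 64.6), the granulocytes at 17.3, the progenitor/stem cells at 10.8 and the erythroblasts at 1.50, on 3, 7, 9 and 1 UMIs. The intervals of neighbours in this order overlap. The log2 ratio of T over B lymphocytes was 5.50 (3.94 to 7.79). Ms4a4b was found in 33 of 43 T lymphocytes (76.7%). The median was 4 UMIs over all 43 wells and 5 in the wells with a UMI, and the highest value was 30. At 1000 UMIs per well the expected share was 51.6%, against 0.188% in the erythroblasts.

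Ms4a6b was likewise highest in the T lymphocytes, at 669 CPM (560 to 792), but unlike Ms4a4b it had a clear level outside them. The progenitor/stem cells were at 76.7 CPM (59.0 to 97.9), the granulocytes at 64.4 (42.1 to 94.4) and the B lymphocytes at 14.7 (1.78 to 53.2). The progenitor/stem cells and granulocytes cannot be ordered within counting error. The erythroblasts gave 0 UMIs in 96 wells, which allows a captured UMI in up to 3.13% of wells (3 of 96) and sets no limit on the cells that express the gene. The log2 ratio of T lymphocytes over progenitor/stem cells was 3.12 (2.68 to 3.58). A UMI was found in 27 of 43 T lymphocytes and 41 of 95 progenitor/stem cells, and at 1000 UMIs per well in 36.7% and 7.65%, so the second share fell the more once the depths were made equal.

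In the T lymphocytes Ms4a4b and Ms4a6b occurred together. Both were found in 26 of 43 wells and neither in 9, while 7 wells held Ms4a4b alone and 1 held Ms4a6b alone. The Spearman correlation of their shares was 0.65 (Pearson 0.67, 43 wells of 1 library). If the genes were independent, 20.7 wells would hold both. Depth moved with detection: the wells without Ms4a4b had a median of 4018 UMIs and those with it 4472, and for Ms4a6b these were 3582 and 4818. The part of depth in the shared wells was not tested. The well with the most Ms4a4b UMIs, 30, also had the most Ms4a6b UMIs, 21.

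T lymphocytes were divided by the coreceptor transcripts found in the well, which separate the helper (Cd4) and cytotoxic (Cd8a, Cd8b1) lines of thymocytes. This division was added after earlier results were known. Cd4 had 53 UMIs in 23 of the 43 wells, so a coreceptor without a UMI may still have been transcribed in that well. Ms4a4b was found in all 12 wells with Cd8a or Cd8b1 alone, at 1101 CPM (850 to 1404), and in 9 of 16 wells with Cd4 alone, at 562 CPM (402 to 766). The log2 ratio was 0.97 (0.38 to 1.58). The median depths were 3603.5 and 4409.5 UMIs, and the sums 59011 and 71137. Ms4a6b was at 542 and 478 CPM in the same wells, a log2 ratio of 0.18 (−0.56 to 0.92), an interval that holds no difference as well as a change of nearly 2-fold. Wells with both coreceptors (7) or neither (8) held Ms4a4b in 6 each, at 1389 CPM (1046 to 1808) and 1338 CPM (960 to 1815), levels whose intervals overlap that of the wells with Cd8 transcripts alone. Ms4a6b was at 1010 CPM (722 to 1375) and 914 CPM (607 to 1321) in them, above its values in either single-coreceptor group, but of these intervals only that of the wells with both coreceptors and that of the wells with Cd4 alone (331 to 668) do not overlap. These sums lean on single wells. Among the wells with both coreceptors, 1 well held 21 of the 40 Ms4a6b UMIs and 30 of the 55 of Ms4a4b. Among those with Cd4 alone, 1 well held 17 of the 34 Ms4a6b UMIs. The comparison without these wells was not made. The wells with Cd4 alone had the lowest value of both genes.

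**Figure D3:**
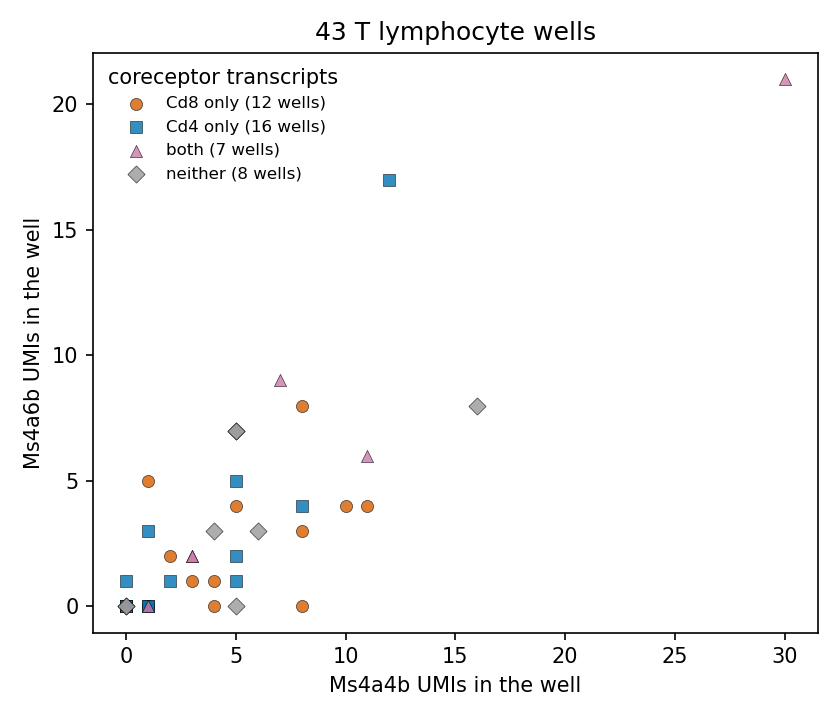
Ms4a4b UMIs (horizontal axis) and Ms4a6b UMIs (vertical axis) in each of the 43 T lymphocyte wells, marked by the coreceptor transcripts found in the well. The 12 wells with Cd8 transcripts only all hold Ms4a4b, 7 of the 16 wells with Cd4 only do not, and the top right well has 30 and 21 UMIs.

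The wells with Ms4a4b, 33 of the 43, held 107 of 108 UMIs of Cd8a, 33 of 53 of Cd4 and 142 of 204 of Bcl11b, a factor of the T lineage. Of the list of mature thymocytes they held all 35 UMIs of S1pr1 (the receptor by which mature thymocytes leave the thymus), 39 of 46 of Klf2 (a regulator of S1pr1), 62 of 73 of Ccr7 (a chemokine receptor), 59 of 76 of Bcl2 (a survival factor) and 34 of 49 of Il7r (the interleukin 7 receptor). The last 2 are about at or below the share of the wells, 76.7%. Of the list of early, double-positive thymocytes, Rag1, Rag2 and Arpp21 had no UMI in any T lymphocyte, while the wells with Ms4a4b held 10 of 11 UMIs of Dntt (which adds bases at V(D)J joints) and 100 of 101 of Cd8b1. Over the 43 wells, the share of UMIs on Ms4a4b had a Spearman correlation of 0.12 (Pearson 0.12) with the mature list and 0.36 (0.21) with the early list, most of whose UMIs were those of Cd8b1. Wells with CD3 fluorescence above the median had 119 Ms4a4b UMIs against 82, a log2 ratio of 0.70 (0.28 to 1.12). It was 0.46 (0.01 to 0.91) without the highest well and 0.54 (−0.02 to 1.10) when the 14 highest wells were set against the 15 lowest. For Ms4a6b the median division gave 0.42 (−0.09 to 0.94). The genes most like Ms4a4b over the 5 populations were Trbc1 (a T cell receptor constant gene) and Cd8a, at a cosine of 0.99995 and 0.9999. Those most like Ms4a6b were Fam102a, Gm37248 and Tecpr1 (0.999, 0.998 and 0.997).

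**Figure D4:**
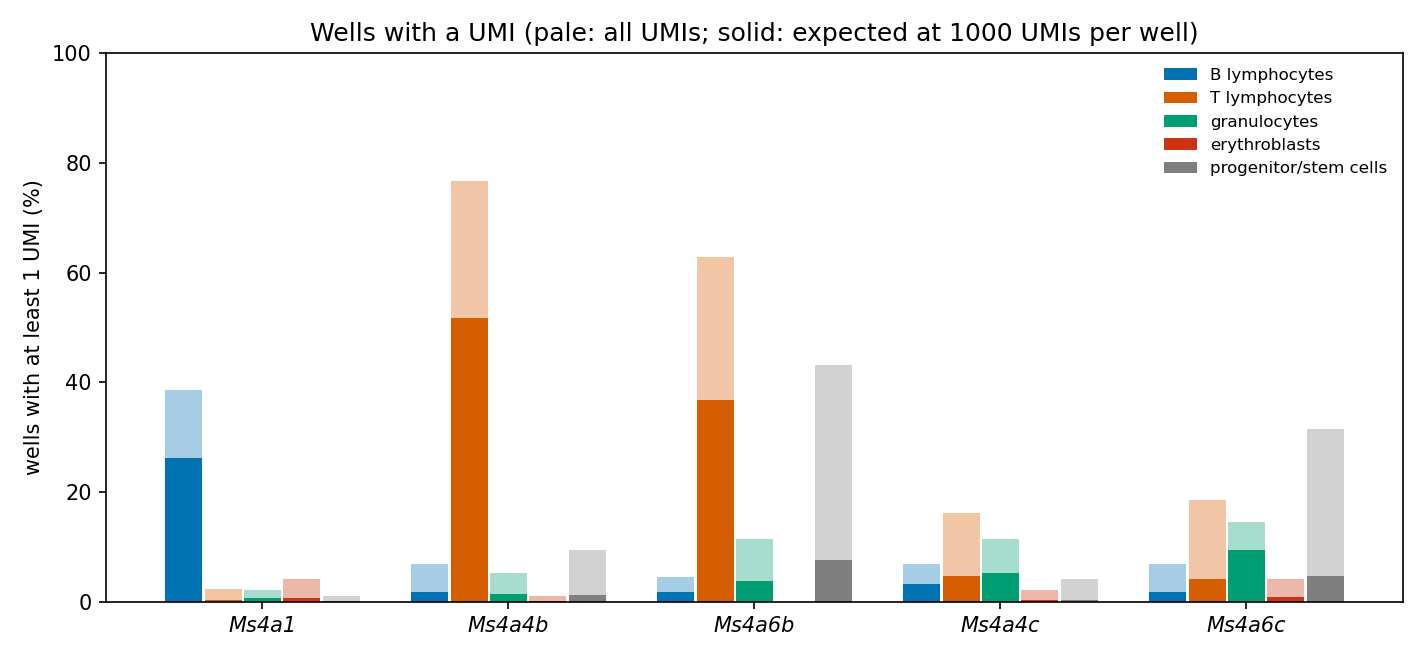
Share of wells with at least 1 UMI of the 5 members that reached 20 UMIs (percent of wells; pale bars, all UMIs; solid bars, expected with every well thinned to 1000 UMIs). Thinning lowers Ms4a6b in the progenitor/stem cells from 43.2% to 7.65% and in the T lymphocytes from 62.8% to 36.7%.

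Ms4a6c was highest in the granulocytes, at 238 CPM (193 to 291) and 96 of its 154 UMIs. The T lymphocytes were at 49.9 CPM (23.9 to 91.8), the progenitor/stem cells at 49.1 (35.2 to 66.6), the B lymphocytes at 22.1 (4.56 to 64.6) and the erythroblasts at 6.00 (1.63 to 15.4). Below the granulocytes, the intervals of neighbours in this order overlap. The log2 ratio of granulocytes over T lymphocytes was 2.25 (1.31 to 3.36). A UMI was found in 14 of 96 granulocytes (14.6%), 30 of 95 progenitor/stem cells (31.6%) and 4 of 96 erythroblasts (4.17%), and at 1000 UMIs per well in 9.42%, 4.77% and 0.944%.

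The Ms4a6c UMIs of the granulocytes lay in few wells. The 13 wells with monocyte genes held 95 of the 96, with 2 to 14 UMIs in each (median 7), and all 13 had at least 2, whereas the other 83 wells held 1 UMI in all. The levels were 1034 and 3.21 CPM, a log2 ratio of 8.33 (5.82 to 13.65). In the 83 wells the level was no higher than in the erythroblasts. With the 13 wells left out, the granulocytes fell below the T lymphocytes, at a log2 ratio of −3.96.

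Ms4a4c followed the same wells. Granulocytes were at 114 CPM (83.5 to 152), T lymphocytes at 54.9 (27.4 to 98.2), B lymphocytes at 36.8 (12.0 to 85.9), progenitor/stem cells at 4.79 (1.31 to 12.3) and erythroblasts at 3.00 (0.363 to 10.8). The T and B lymphocytes cannot be ordered within counting error, and neither can the last 2. The log2 ratio of granulocytes over T lymphocytes, 1.05 (0.08 to 2.15), was under 4-fold. Of its 46 granulocyte UMIs, 45 were in 10 of the 13 wells and 1 in the other 83, and without the 13 wells the log2 ratio was −4.10. Ms4a4c and Ms4a6c were found together in 10 wells, and 11 and 14 wells held each of them. In the T lymphocytes all 7 wells with Ms4a4c also held Ms4a4b, the gene with which it shares part of its 3′ end, and whether reads were split between the copies was not tested.

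The granulocyte UMIs of Ms4a6b and Ms4a6d lay mostly in the same wells. Ms4a6b had 24 UMIs in 9 of the 13 wells and 2 in the other 83, a log2 ratio of 5.35 (3.34 to 8.47). Ms4a6d, at 22.3 CPM (10.2 to 42.3) in the granulocytes, had all 9 of its UMIs in 5 of the 13 wells, and its 2 UMIs elsewhere were 1 each in the T lymphocytes and the progenitor/stem cells. Those 5 wells all held Ms4a4c, Ms4a6b and Ms4a6c as well. Of the 7 granulocyte UMIs of Ms4a4b, 5 lay in 3 of the 13 wells, a log2 ratio of 3.08 (0.47 to 6.48). Over the 96 wells, which share 1 library and differ in depth, the Pearson correlation of the other 4 with the share of UMIs on the monocyte list was 0.94 for Ms4a6c, 0.87 for Ms4a4c, 0.75 for Ms4a6d and 0.72 for Ms4a6b. The Spearman values were 0.64, 0.55, 0.43 and 0.53. With the granulocyte list all 4 were negative, from −0.40 for Ms4a6d to −0.60 for Ms4a6c (Pearson).

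By Gr1 fluorescence, wells at or below the median held 95 of 96 UMIs of Ms4a6c, 45 of 46 of Ms4a4c, 25 of 26 of Ms4a6b and 9 of 9 of Ms4a6d. The Gr1 antibody binds the products of Ly6c2 and Ly6g. Ly6c2 had 220 UMIs in the 13 wells and 363 in the other 83, and Ly6g had 0 and 10. Scaled to depth, Ly6c2 was higher in the 13 wells, at 2395 against 1165 CPM and a log2 ratio of 1.04 (0.79 to 1.29). Side scatter, a measure of granularity, had a median of 30016 in the 13 wells and 56640 in the others. The exception among the 13 was the deepest well, at 136000, with the next highest at 37888. That well held the most UMIs of Ms4a6c (14) and of Ms4a4c (9). By Mac-1 fluorescence Ms4a6c had 52 UMIs above the median and 44 at or below it, a log2 ratio of −0.00 (−0.61 to 0.61). The monocyte genes and low Gr1 thus moved together with these 4 members, and low side scatter did so except in the deepest well. Their part in the granulocyte levels was not tested beyond leaving the 13 wells out.

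**Figure D5:**
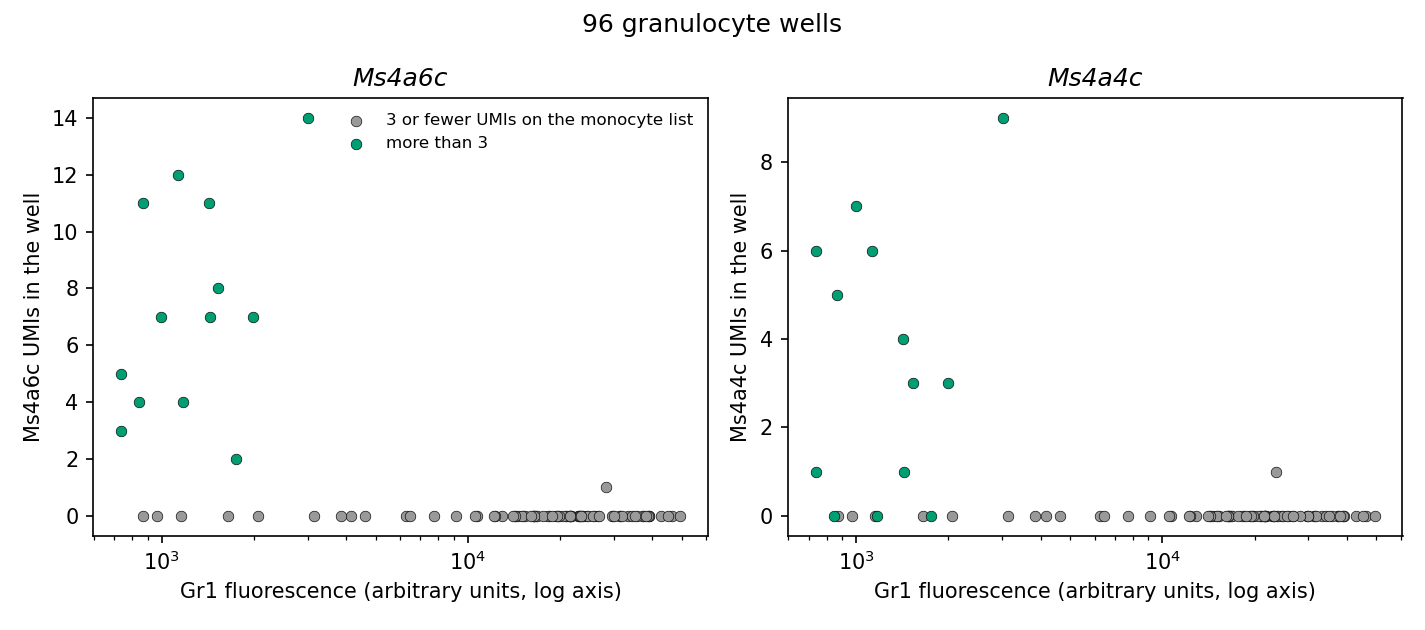
Ms4a6c UMIs (left) and Ms4a4c UMIs (right) in each of the 96 granulocyte wells against Gr1 fluorescence (arbitrary units, log axis); green points are the 13 wells with more than 3 UMIs on the monocyte list. The green wells lie at a Gr1 of 736 to 3007 and hold 95 of 96 Ms4a6c and 45 of 46 Ms4a4c UMIs, and all but 1 of the grey wells of each panel lie at 0.

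Ms4a3 and Ms4a2 were low, and apart from the deepest well they lay outside the 13 wells. Ms4a3 was at 29.7 CPM (15.4 to 51.9) in the granulocytes, on 12 UMIs in 3 of 96 wells. Its only other UMI was in a progenitor/stem cell. The deepest granulocyte well held 9 of the 12, 2 of the 4 UMIs of Ms4a2 in granulocytes, and 297 of the 423 granulocyte UMIs on the list of primary granule genes (Mpo, Elane, Prtn3, Ctsg, Fcnb and Cebpe), which promyelocytes make. In the same well there were 94 UMIs on the monocyte list. It had 22425 UMIs in all, against 8186 in the next deepest granulocyte well. Whether it held more than 1 cell was not tested. The 3 wells with Ms4a3 held 61 of 93 UMIs of Fcnb (ficolin) but 16 of 4203 of Retnlg and 0 of 745 of Mmp9, both genes of late neutrophils. Ms4a3 had a Pearson correlation of 0.82 with the primary granule list over the 96 wells (Spearman 0.31).

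Ms4a2 was at 9.91 CPM (2.70 to 25.4) in the granulocytes, on 4 UMIs in 3 wells, of which 2 also held Ms4a3. Progenitor/stem cells had 1 UMI and the other populations 0. A count of 0 allows a UMI in up to 3 wells of each, which is 6.82% for B lymphocytes, 6.98% for T lymphocytes and 3.13% for erythroblasts, and limits wells with a captured UMI and not cells that express the gene. Of the genes of mast cells and basophils analysed (Cpa3, Mcpt8, Prss34, Hdc, Gata2 and Il1rl1), only Hdc, the histamine-forming enzyme, had UMIs in the 3 granulocyte wells with Ms4a2. Hdc had 5 UMIs there and 126 over all granulocytes. Cpa3, a mast cell protease, had no UMI in any granulocyte and 22 among progenitor/stem cells, and Gata2, a factor of these lineages, had 8 and 118. Of the partners of the IgE receptor, Fcer1g, the gamma chain shared by several Fc receptors, had 444 granulocyte UMIs and 63 in progenitor/stem cells. The kinase Syk had 114 and 158, and Lyn 16 and 6. Fcer1a, the IgE-binding chain, was not analysed here.

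In the progenitor/stem cells Ms4a6b (64 UMIs in 41 wells) and Ms4a6c (41 UMIs in 30 wells) were the leading members. Both were found in 16 of the 95 wells, where 12.9 would hold both if the genes were independent. Marker genes also had low counts outside the population they name, which gives a background for these values. Genes of the granulocyte list had in progenitor/stem cells 2.11% to 9.20% of their granulocyte UMIs, while Ms4a6c had 42.7%. Nearly all granulocyte UMIs of Ms4a6c, 95 of 96, however lay in the 13 wells with monocyte genes. UMIs of the monocyte list in progenitor/stem cells and granulocytes were 16 and 80 (Csf1r), 10 and 276 (Ccr2), 10 and 184 (F13a1) and 8 and 38 (Ly86). For Klf4, Fcgr1 and Ctss they were 2 and 28, 2 and 9, and 3 and 9, and for Ms4a6c 41 and 96. The 8 genes of the T lymphocyte list with at least 20 UMIs in the T lymphocytes had 0% to 32.1% (median 2.78%) of that count there, and Lck, with fewer, had 3 UMIs there and 9 in the T lymphocytes, against 47.8% for Ms4a6b and 4.48% for Ms4a4b. Ms4a6b and Ms4a6c were thus above these genes and Ms4a4b was within their range. For Ms4a6c in the T lymphocytes the same figure was 10.4%, with the granulocyte list at 0.711% to 3.35%. The monocyte list had 12 UMIs in the T lymphocytes and 624 in the granulocytes.

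By the antibodies of the progenitor gate, no difference in either gene was beyond counting error. Wells above the c-Kit median had a log2 ratio over the others of 0.47 (−0.28 to 1.24) for Ms4a6b and 0.23 (−0.72 to 1.20) for Ms4a6c, and for Sca-1 these were −0.38 (−1.16 to 0.37) and −0.05 (−1.01 to 0.90). Ms4a6c was higher in wells of large forward scatter, with 29 UMIs against 12 and a log2 ratio of 1.23 (0.21 to 2.33), whereas Ms4a6b was at 0.13 (−0.62 to 0.89). For the 31 largest against the 32 smallest wells the Ms4a6c value was 1.44 (0.18 to 2.91). This was 1 of 6 comparisons in these cells, and the wells above the median were also deeper (8779 against 7247 UMIs). Monocyte genes had 51 UMIs in the 95 wells, and their share had a Spearman correlation of 0.05 with Ms4a6c and 0.05 with Ms4a6b.

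The levels of Ms4a4c over the 5 populations were most like those of Rara (the retinoic acid receptor alpha), Slfn2 and Rab11fip1, at a cosine of 0.999, 0.997 and 0.994, and those of Ms4a6c most like Plp2, Cpne3 and Gm44503 (0.9996, 0.999 and 0.999). Each of these values rests on 5 points. Of the other Ms4a genes, 4 were analysed and had 22 UMIs together, against 768 for the 8 members. Ms4a4d had 10 of its 11 UMIs in the T lymphocytes. Ms4a8a had its 7 UMIs in 5 of the 13 granulocyte wells with monocyte genes and none in the other 83, and the granulocyte UMIs of Ms4a4a (2) and Ms4a7 (1) were also in those 13 wells. Of the related genes Tmem176a and Tmem176b, the progenitor/stem cells held 141 of 165 and 309 of 377 UMIs.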

How the data were processed

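Single cells of 5 sorted populations of 1 mouse were measured by CEL-seq2. The deposited values are UMI counts of the authors, whole numbers from scPipe (UMIs within 1 mismatch merged by default) without normalization. Aligner version, genome build, annotation and strand use were not given in the sources used here for this dataset, and the labels give 2 contradictory layouts of read 1. Each column was assigned to the sample of its well, which left 9 columns unassigned and unused. Symbols came from GENCODE M21 (19755 of 19829 IDs matched). Counts were summed per population and scaled to UMIs on mouse genes (CPM), without ERCC. Depth limits precision: 1 UMI is 7.36 CPM for B lymphocytes and 1.20 for progenitor/stem cells. Intervals are 95% exact Poisson for levels, exact binomial for shares (3 wells over the wells sorted where a count was 0) and exact conditional binomial for ratios, and cover counting error only. When T lymphocyte and granulocyte sums were simulated for 9512 genes, 97.3% of intervals covered the simulated ratio. No doublet caller was run, since single cells were sorted into wells, so a well with more than 1 cell would not have been found. The members and lists were chosen with earlier results of these data known. Genes named are the members, genes of the lists and, for members with at least 50 UMIs, the 3 genes with the highest cosine similarity of CPM. Some genes are not reported here and were left out of the lists, and their sums recomputed, after the results were known. Software was Python 3.11.15, numpy 2.4.6, pandas 2.3.3, scipy 1.17.1 and matplotlib 3.10.9, and for alternative scalings R 4.3.3, scran 1.30.0 and edgeR 4.0.16. The ERCC rows were used only in an alternative scaling.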

Additional observations from a re-analysis of the deposited data

How the results depend on the processing

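The direction of the highest over the next population was recomputed under 8 alternatives and 2 more that were chosen after seeing the data. Of 79 ratios, 75 kept their direction and moved by less than their counting interval. With scran size factors the log2 ratio of Ms4a1 was 4.77 instead of 6.25, and scaled to ERCC UMIs that of Ms4a6b was 2.23 instead of 3.12. Without the 13 granulocyte wells that hold more than 3 UMIs on the monocyte list, an alternative chosen after seeing the data, Ms4a4c reversed to −4.10 and Ms4a6c to −3.96, and 3 members were past 4-fold. Without the deepest granulocyte well, the other added alternative, they were 0.82 and 2.11. The count of members past 4-fold was 3 without the 13 wells, with scran size factors, with the mean of CPM over wells and with ERCC scaling. It was 5 at a fold of 2 and 4 in the remaining settings. The call lost was each time that of Ms4a6c. With scran size factors, the mean of CPM and ERCC scaling, Ms4a6c was at 1.87, 1.64 and 1.32 over the progenitor/stem cells. With TMM factors it was at 3.00. Over all genes, 1152 were past 4-fold with scran size factors (12.1%), 1061 with ERCC scaling (11.2%) and 1965 past 2-fold, against 676. Ms4a6d gave no ratio without the 13 wells, since no granulocyte UMI was left. No thinning or thinning to 2000 UMIs moved 7 of 16 shares of wells. For the divisions by fluorescence or scatter, the highest wells were also set against the lowest. In 23 of 24 the value stayed within the counting interval of the division at the median. These intervals are wide, and values within them still differed. Ms4a1 by B220 went from 0.96 to 1.66 and Ms4a4c by Mac-1 from 0.53 to 1.38. Ms4a6b by forward scatter in progenitor/stem cells went from 0.13 to −0.19. Of the correlations, 39 of 39 kept about the same value. The genes most like Ms4a1, Ms4a4c and Ms4a6b depended on the measure, with 0, 1 and 0 of 3 shared with a Pearson correlation of log2 CPM. Between the 32 highest and the 32 lowest wells by Mac-1 fluorescence, Ms4a6c in granulocytes was at a log2 ratio of 0.69, against −0.00 for a division at the median. No paired analysis was possible because each population is 1 sample of the same mouse and cells have no counterpart in another population.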
